A study of Oryza sativa with 8 samples.

Results

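The Aux/IAA and ARF genes hold the core of the transcriptional response to auxin, and 43 of them, 26 Aux/IAA genes and 17 ARF genes, were followed here among 17905 rice genes with a probe set of their own. They were chosen by a rule on names, set with earlier results of these data known. It took every platform or RefSeq symbol or synonym that reads IAA or ARF and a number, with a leading Os dropped. ARF is also a name for ADP-ribosylation factors, and no protein sequence was read here, so that each ARF gene is an auxin response factor rests on its name. Where a gene had several probe sets, which 9 of the 43 did, the one with the highest mean signal was used. The names of 8 more genes fit the rule without a probe set that reads them alone (ARF5, ARF6, ARF8, ARF19, ARF21, ARF25, IAA11 and IAA29), and these were not analysed here.

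Aux/IAA proteins are short-lived repressors. When auxin is present it joins them to receptors of the TIR1/AFB family, they are marked for breakdown, and the auxin response factors (ARFs) that they had held back can act on their target genes. ARFs are DNA-binding proteins, some known as activators and others as repressors, and many Aux/IAA genes are themselves induced by auxin, so that their transcripts are often read as a sign of the response. In roots the system is known for its part in cell division at the tip, lateral and crown root formation, root hair growth and gravitropism.

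The RNA came from roots of IR64, an indica rice cultivar, grown in pots in a greenhouse, and was read on Affymetrix rice arrays, 1 per sample. Transgenic plants (T) carried 35S::OsPSTOL1, a protein kinase gene tied to growth on phosphorus-poor soil, here behind a promoter that is active in nearly all cells. Null segregants (NT) were their counterparts without the transgene. The 4 groups were T in P-deficient soil, NT in P-deficient soil, T in P-fertilised soil and NT in P-fertilised soil, with 2 biological replicates each. Plants in P-deficient soil were sampled at heading and plants with P fertiliser at mid-tillering. Any comparison between soils is also one between these stages, and the effects cannot be told apart. The number of transgenic lines behind the T plants is not given in the sources used here. In root samples, fewer cells of a type and less RNA per cell cannot be told apart either.

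The values are probe set intensities on a linear scale, already scaled to a common mean on every array when deposited. Summed intensity ran from 8060018 to 8802152 per array. Log2 signals correlated at 0.964 to 0.984 between replicates and at 0.804 to 0.83 between soils, taken over probe sets, which do not count as replicates. The SD of the log2 difference between replicates was 0.372 for T and 0.423 for NT grown in P-deficient soil, and 0.282 for T and 0.275 for NT grown in P-fertilised soil, so the P-deficient replicates were the less alike. The 3-prime to 5-prime ratio of the GAPDH control probe sets, a sign of RNA integrity, was 198 on T replicate 1 of P-deficient soil, 3.05 on its partner and 1.15 to 2.16 on the other 6 arrays. The same ratio of the actin controls was 272 and 20.3 on these T arrays, 4.85 and 8.61 on the NT arrays of the same soil and 5.15 to 6.09 with P fertiliser, so both T arrays of P-deficient soil stood apart. A level here belongs to its own probe set and is not set against that of another gene. Differences are between means of log2(intensity + 32), a scale that understates the change of dim genes, with the SE of the fit. Their adjusted p-values come from limma's test over 34316 probe sets with Benjamini-Hochberg adjustment, and a gene passed at an adjusted p under 0.05.

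Of the 43 genes, 40 passed the filter on low signal, 23 Aux/IAA and all 17 ARF genes. The 3 left out were Aux/IAA genes. IAA16 stayed between 0.5 and 1.9 on all arrays. IAA8 read 8 and 3.2 (T) and 3.4 and 0.5 (NT) under P deficiency, against 15.2 and 20.4 (T) and 13.4 and 14.5 (NT) with P fertiliser. IAA14 read 2.8 and 7 (T) and 6.3 and 0.9 (NT) under P deficiency, against 12.6 and 14.7 (T) and 10.1 and 16.7 (NT) with P fertiliser. Both were lower on every P-deficient array, and in a fit with no filter IAA8 (-0.42 ± 0.07, limma adjusted p = 0.00438) and IAA14 (-0.33 ± 0.08, limma adjusted p = 0.0217) passed. Their signals lie near the floor, so nothing is read from the direction of these calls.

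Between the soils most calls among the repressor genes were lower and most among the factor genes higher, a contrast between families that was not itself tested. In P-deficient soil, 15 of the 23 Aux/IAA genes fell and 2 rose, while 8 of the 17 ARF genes rose and 3 fell. Without IAA4 and IAA7, which passed the filter only through their P-fertilised arrays, 13 of 21 Aux/IAA genes fell and 2 rose. Over all 40, 28 passed, 10 higher and 18 lower, with IAA4 and IAA7 still among the 18. The background was high: 47.1% of all probe sets tested passed, 22.3% higher and 24.8% lower. It is against these shares that the members' 25% higher and 45% lower are to be read. The background also holds dim probe sets, and its share rose as these were left out. With a filter at 60%, 13285 of 22878 probe sets passed, beside 26 of 37 members. The median change was -0.62 for Aux/IAA genes and 0.04 for ARF genes, beside 0.0088 for all probe sets, and the changes ran from -4.12 to 1.84 in the Aux/IAA family and from -1.31 to 1.81 among the ARFs. A change of more than 1 on the log2 scale was found in 10 Aux/IAA genes downward, IAA7 among them, and 1 upward. In the ARF family it was found in 1 gene downward and 6 upward. All probe sets gave 9.73% lower and 6.43% higher. The arrays of the soils did not overlap in 25% of the members with P-deficient soil higher and 45% with it lower. Of all probe sets 20.8% and 23% showed this. These members were the 28 genes that had passed on the same arrays, so this count is no further support for the calls.

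**Figure D1:**
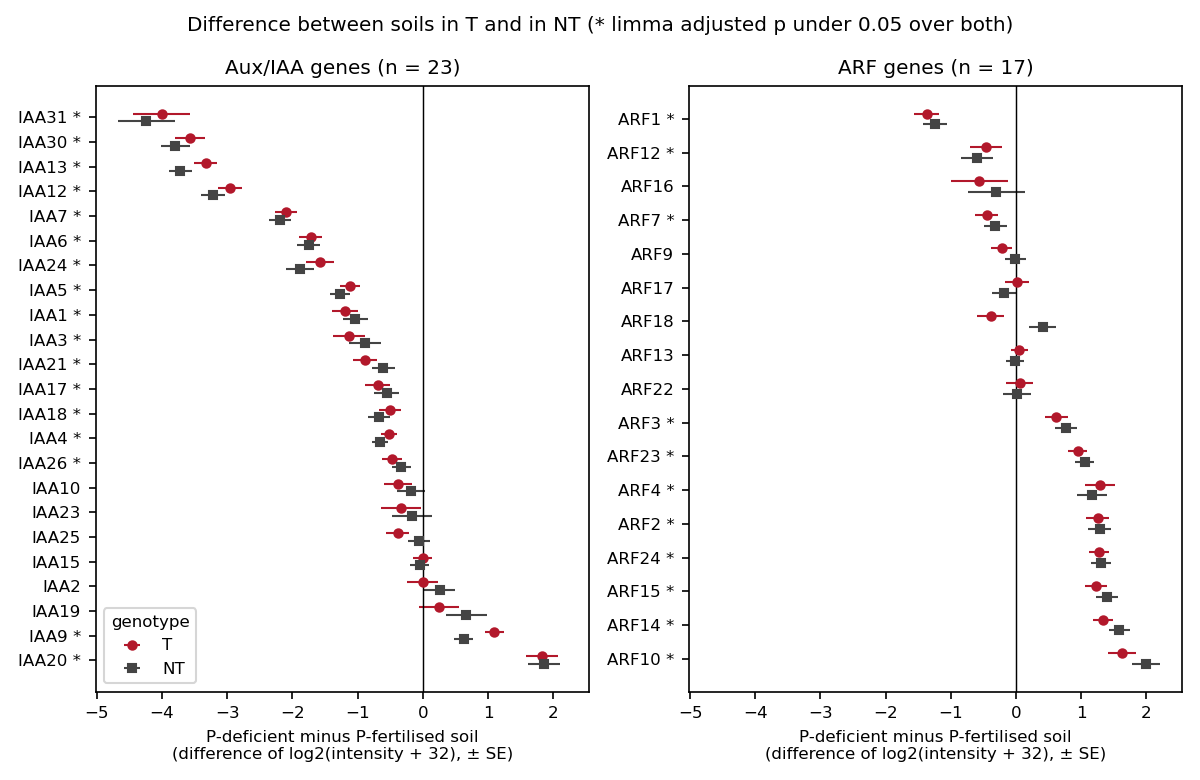
Difference between P-deficient and P-fertilised soil for 23 Aux/IAA genes (left) and 17 ARF genes (right), in T plants and in NT plants. The horizontal axis is the difference of log2(intensity + 32), points are the fitted differences and bars their SE; an asterisk marks genes that passed over both genotypes. Most Aux/IAA points lie left of 0, out to IAA31 at -4.01 in T and -4.24 in NT, and most ARF points lie right of it, out to ARF10 at 1.63 in T and 1.99 in NT.

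The deepest falls were those of 4 Aux/IAA genes. IAA13, whose stabilised form is known in rice to block lateral root initiation, had 285.7 and 198.3 (T) and 213.9 and 188.2 (NT) under P deficiency, against 2653.8 and 2727.6 (T) and 2969.8 and 3094.2 (NT) with P fertiliser. Every P-deficient array lay far below every P-fertilised one, and the difference was -3.52 ± 0.13 (limma adjusted p = 4.14e-07). IAA30 had 124.8 and 75.2 (T) and 69.9 and 106.5 (NT) under P deficiency, against 1485.4 and 1531.5 (T) and 1542.8 and 1698.3 (NT) with P fertiliser, a difference of -3.68 ± 0.16 (limma adjusted p = 9.45e-07). IAA31 is the next gene along the chromosome in the annotation. Its signals in P-deficient soil were spread widely, with 150.8 and 28.8 in T and 42.9 and 72.9 in NT, yet all lay below the 1778.2 and 1557 (T) and 1624.1 and 1659.2 (NT) with P fertiliser. It fell by 4.12 ± 0.31 on the log2 scale (limma adjusted p = 1.43e-05). IAA12 had 89.8 and 70.2 (T) and 83.2 and 57 (NT) under P deficiency, against 855 and 822.1 (T) and 967.5 and 865 (NT) with P fertiliser, and its difference was -3.09 ± 0.13 (limma adjusted p = 8.29e-07). None of the 4 passed for T minus NT in either soil.

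A second tier of Aux/IAA genes fell by less. IAA7 was near the bottom of the scale in P-deficient soil, with 16.1 and 4.4 in T and 3.1 and 2.9 in NT, against 138.8 and 155.9 (T) and 120.9 and 134.6 (NT) with P fertiliser. Its fitted change of -2.14 ± 0.12 (limma adjusted p = 3.13e-06) is compressed by the pseudocount, since the P-deficient signals lie below it. IAA7 passed the filter only through its P-fertilised arrays, so nothing is read from the direction of its call. IAA6, tied in rice to drought tolerance and tiller outgrowth, had 90.2 and 101.7 (T) and 113.8 and 78.6 (NT) under P deficiency, against 387.9 and 388.9 (T) and 382.4 and 408 (NT) with P fertiliser. In IAA24 the P-deficient arrays showed 87.6 and 49.2 (T) and 50.4 and 36 (NT), and the P-fertilised ones 279.3 and 246.9 (T) and 254.4 and 232.6 (NT). Both genes fell by 1.73 on the log2 scale, with an SE of 0.13 for IAA6 and 0.15 for IAA24, and neither had overlapping soils.

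IAA5, IAA3 and IAA17 fell by smaller amounts. IAA5 kept 674.4 and 571.6 (T) and 490.5 and 597.4 (NT) under P deficiency, against 1390.2 and 1382.8 (T) and 1382.7 and 1318.8 (NT) with P fertiliser (-1.19 ± 0.11, limma adjusted p = 4.79e-05). IAA3 had 1438.2 and 1069.4 (T) and 1194.2 and 2026.5 (NT) under P deficiency, against 2560.6 and 2975.3 (T) and 2901.9 and 2917.2 (NT) with P fertiliser (-1.01 ± 0.17, limma adjusted p = 0.00158). IAA17 had 2002.7 and 1777.5 (T) and 1660.6 and 2501.9 (NT) under P deficiency, against 2930.9 and 3200.4 (T) and 2872.4 and 3146.4 (NT) with P fertiliser (-0.62 ± 0.14, limma adjusted p = 0.00552). In IAA3 and IAA17 NT replicate 2 stood above the other P-deficient arrays without reaching the P-fertilised ones. The suffix of the IAA17 probe set marks probes shared with other transcripts.

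IAA1 averaged 194 ± 33 under P deficiency and 455 ± 52 with P fertiliser (SD, n = 4 arrays of both genotypes each), a change of -1.11 ± 0.14. IAA21 averaged 452 ± 57 under P deficiency and 779 ± 93 with P fertiliser (SD, n = 4 each), a change of -0.75 ± 0.13. Both passed, with limma adjusted p = 0.000252 for IAA1 and 0.00149 for IAA21. The remaining falls were at low signal. IAA4 read 10.1 and 12.6 (T) and 5.9 and 0.6 (NT) under P deficiency, against 30.5 and 29.4 (T) and 24.8 and 21.8 (NT) with P fertiliser. It fell by 0.58 on the log2 scale with limma adjusted p = 0.000752. IAA4 and IAA7 passed the filter only through their P-fertilised arrays, so nothing is read from the direction of their calls. Of the 21 Aux/IAA genes above the limit in both soils, 13 fell and 2 rose. IAA18 fell by 0.59 and IAA26 by 0.40 on the same scale (limma adjusted p = 0.00382 for IAA18 and 0.0146 for IAA26). The soils did not overlap in IAA18, with 16 to 33.4 under P deficiency and 44.9 to 61.5 with P fertiliser, or in IAA26, with 8.5 to 20.1 under P deficiency and 24.4 to 33.7 with P fertiliser.

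Only IAA20 and IAA9 passed in the other direction within the Aux/IAA family. IAA20 had 202 and 330.3 (T) and 296.5 and 193.8 (NT) under P deficiency, against 48.7 and 51.4 (T) and 47.8 and 38.6 (NT) with P fertiliser. It rose by 1.84 ± 0.18 (limma adjusted p = 6.07e-05), the largest rise of the 40 genes, although its replicates in P-deficient soil lay apart by more than those in P-fertilised soil. IAA9 had 159.3 and 135.8 (T) and 126.6 and 113.8 (NT) under P deficiency, against 51.2 and 52.2 (T) and 66 and 67.1 (NT) with P fertiliser. Its change was 0.86 ± 0.11 (limma adjusted p = 0.000239). A locus that the annotation also calls IAA20 is given here as IAA4, the name by which it is better known.

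Of the Aux/IAA genes, 6 did not pass. IAA15 read 951.3 and 888.3 (T) and 862.7 and 902.1 (NT) under P deficiency, against 965.6 and 880.6 (T) and 1010.4 and 827.6 (NT) with P fertiliser. The soils overlapped in full and the difference was -0.03 ± 0.11 (limma adjusted p = 0.856). IAA23, tied to upkeep of the quiescent centre in rice roots, ranged from 295.7 to 585 in P-deficient soil and from 457.8 to 519.5 in P-fertilised soil (-0.25 ± 0.22, limma adjusted p = 0.379). IAA19 ranged from 170.9 to 421.9 in P-deficient soil and from 196 to 255.5 in P-fertilised soil (0.46 ± 0.22, limma adjusted p = 0.12), and 1 array decides its call. The 170.9 is T replicate 1, the array with the GAPDH ratio of 198, and the other 3 P-deficient arrays lie at 401.4 and above. Without that array IAA19 rose by 0.73 ± 0.12 (limma adjusted p = 0.00278). IAA2 and IAA25 had differences of 0.13 and -0.22 (limma adjusted p = 0.561 and 0.173). IAA10 had -0.28 (limma adjusted p = 0.159), and with NT replicate 2 left out of P-deficient soil, its highest array there at 248.9, it fell by 0.42 ± 0.12 on the log2 scale (limma adjusted p = 0.0231).

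**Figure D2:**
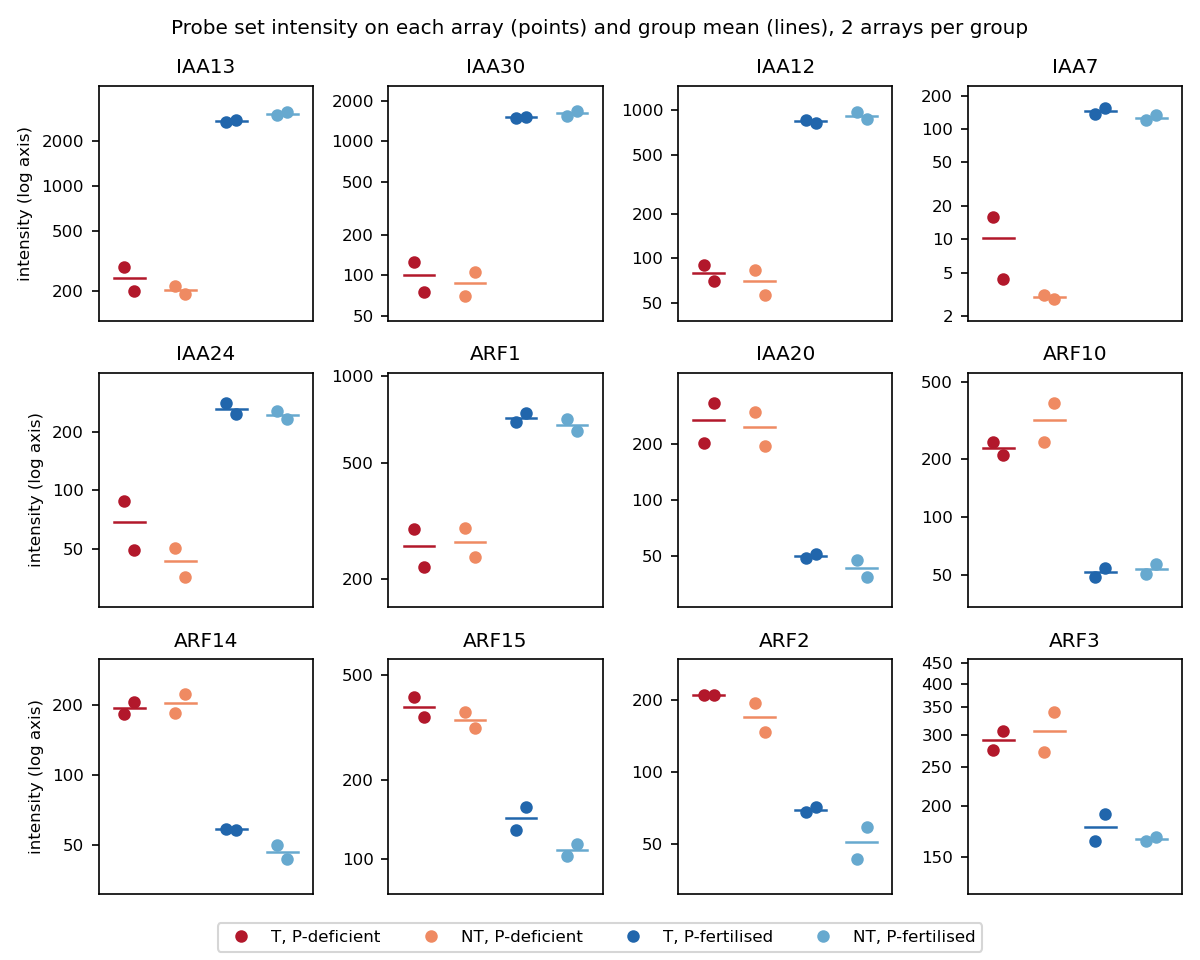
Intensity on each array (log axis) for 12 genes with a change between soils, with groups from left to right T and NT in P-deficient soil, then T and NT in P-fertilised soil; points are arrays and lines the mean of 2 arrays. In IAA13, IAA30, IAA12, IAA7, IAA24 and ARF1 all P-deficient arrays lie below all P-fertilised arrays, and in IAA20, ARF10, ARF14, ARF15, ARF2 and ARF3 all lie above.

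Among the ARF genes the rises were smaller than the deepest Aux/IAA falls and are given here by the small RNAs known to cut their transcripts. The ETTIN-type factors ARF2, ARF3, ARF14 and ARF15 are known in rice as targets of tasiR-ARF, a small RNA made from the TAS3 precursor, and all 4 rose, with a median change of 1.29. ARF14 had 183.9 and 207.1 (T) and 184.6 and 223.8 (NT) under P deficiency, against 58.2 and 58.1 (T) and 50 and 43.2 (NT) with P fertiliser (1.46 ± 0.11, limma adjusted p = 1.76e-05). ARF15 had 412.1 and 346.7 (T) and 362.6 and 314.1 (NT) under P deficiency, against 129.3 and 158.6 (T) and 102.9 and 114.4 (NT) with P fertiliser (1.31 ± 0.12, limma adjusted p = 5.01e-05). ARF2 had 209.8 and 210.5 (T) and 193.9 and 148 (NT) under P deficiency, against 68.2 and 71.4 (T) and 43.7 and 59.1 (NT) with P fertiliser (1.27 ± 0.12, limma adjusted p = 6.56e-05). In each of these 3 the lowest P-deficient array was far above the highest P-fertilised one. ARF3 had 274.3 and 306.8 (T) and 272.2 and 340.4 (NT) under P deficiency, against 164.7 and 191.5 (T) and 164.3 and 168.4 (NT) with P fertiliser, and its change of 0.69 ± 0.12 (limma adjusted p = 0.00167) was the smallest of the 4. The rise of 4 of 4 stands beside 22.3% of all probe sets, and the class is small.

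Of the measured targets of miR160 and miR167, 1 rose and 1 fell. Of the 4 miR160 targets of rice, 3 were measured. ARF10 had 243.8 and 207.7 (T) and 243.7 and 387.4 (NT) under P deficiency, against 48.8 and 54 (T) and 50.7 and 56.9 (NT) with P fertiliser, and rose by 1.81 ± 0.15 (limma adjusted p = 2.7e-05). ARF18, also listed as ARF10 in the annotation, read 87.7 and 138.2 (T) and 159 and 192.7 (NT) under P deficiency, against 138.7 and 171.9 (T) and 119.5 and 128.1 (NT) with P fertiliser. Its soils overlapped, with a difference of 0.01 ± 0.15 (limma adjusted p = 0.953). ARF22 also overlapped, with 257.5 to 386.6 under P deficiency and 279.3 to 318.9 with P fertiliser (0.04 ± 0.15, limma adjusted p = 0.863). Of the 4 miR167 targets 2 were measured, ARF12, tied in rice to root elongation and to phosphate and iron levels, and ARF17. ARF12 had 135.2 and 111.3 (T) and 83.9 and 119.8 (NT) under P deficiency, against 138.7 and 232.5 (T) and 152 and 186.1 (NT) with P fertiliser. It fell by 0.53 ± 0.17 (limma adjusted p = 0.0353), and the highest P-deficient and the lowest P-fertilised array nearly met. ARF17 ranged from 278 to 361.5 in P-deficient soil and from 288.7 to 382.7 in P-fertilised soil (-0.09 ± 0.13, limma adjusted p = 0.617).

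The other ARF genes went both ways. ARF23 and ARF24, whose products are known to pair in rice and to act on an actin-organising gene in root growth, both rose. ARF24 had 438.8 and 381.7 (T) and 351.4 and 391.6 (NT) under P deficiency, against 148.9 and 153.5 (T) and 134.5 and 127 (NT) with P fertiliser (1.29 ± 0.11, limma adjusted p = 2.92e-05). ARF23 had 1113.5 and 1008 (T) and 902.3 and 905.3 (NT) under P deficiency, against 560.9 and 511.6 (T) and 398.8 and 438.7 (NT) with P fertiliser (0.999 ± 0.102, limma adjusted p = 8.34e-05). ARF4 also rose, with 1052.3 and 784.9 (T) and 845.1 and 1014.5 (NT) under P deficiency, against 433.8 and 284.7 (T) and 427.6 and 366 (NT) with P fertiliser (1.23 ± 0.16, limma adjusted p = 0.000376). All of these had soils that lay apart. ARF1 was the one ARF gene with a fall of more than 1 on the log2 scale. It had 297.3 and 220.6 (T) and 299.8 and 237.2 (NT) under P deficiency, against 690.2 and 740.5 (T) and 708.8 and 643 (NT) with P fertiliser (-1.31 ± 0.13, limma adjusted p = 7.96e-05).

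ARF7 fell by 0.38 ± 0.13 on the log2 scale (limma adjusted p = 0.0384), with 321.4 and 283.1 (T) and 233.1 and 320.3 (NT) under P deficiency, against 431 and 418.2 (T) and 327 and 371 (NT) with P fertiliser. The calls of ARF7 and ARF12 are the fragile ones: neither passed within T or within NT alone, and over 17 other settings ARF7 passed in 10 and ARF12 in 8, with adjusted p up to 0.131 for ARF7 and 0.123 for ARF12. ARF16, reported in rice to link auxin with phosphate starvation, varied more between P-deficient replicates than between soils. It had 137.4 and 252.4 (T) and 364.7 and 109.5 (NT) under P deficiency, against 298.2 and 285.7 (T) and 284.9 and 238.8 (NT) with P fertiliser (-0.43 ± 0.31, limma adjusted p = 0.283). Without the 364.7 of NT replicate 1 it fell by 0.81 ± 0.19 on the log2 scale (limma adjusted p = 0.0126). ARF9 and ARF13 also failed to pass, with differences of -0.11 and 0.01. ARF13 was dim on all arrays, at 12.8 and 8 (T) and 8 and 15.7 (NT) under P deficiency and 6.5 and 11.3 (T) and 10.5 and 14.3 (NT) with P fertiliser.

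Within each genotype taken alone, on separate arrays, the direction of every call was the same. In T plants 26 of 40 genes passed, 10 higher and 16 lower, where 35.7% of all probe sets did, 15.5% higher and 20.2% lower. In NT plants 24 passed, 10 higher and 14 lower, where 32.5% did, 15.5% higher and 17.1% lower. The genes called in both numbered 10 higher and 14 lower, IAA4 and IAA7 among the 14, and none was called in opposite directions. IAA17 and IAA26 passed in T alone, with adjusted p of 0.0574 for IAA17 and 0.133 for IAA26 in NT, and the difference between genotypes passed for neither in the interaction test. The leading values were close: IAA13 changed by -3.33 ± 0.18 in T and -3.72 ± 0.18 in NT, IAA31 by -4.01 ± 0.43 in T and -4.24 ± 0.43 in NT, and ARF10 by 1.63 ± 0.21 in T and 1.99 ± 0.21 in NT. The NT arrays had GAPDH ratios of 1.15 to 1.94. The spread behind the test in NT is pooled over all 8 arrays, and with T replicate 1 of the P-deficient plants left out 25 members passed in NT.

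The roots differed between soils in much else. Of 30 genes of cell division (names of cyclins, B-type cyclin-dependent kinases and their inhibitors, MCM and PCNA), 29 were tested. Of these 23 fell and none rose, beside 24.8% and 22.3% of all probe sets, with a median change of -1.10. Some passed the filter only through their P-fertilised arrays, such as a CYCB2 gene at 0.9 to 8.8 in P-deficient soil and CYCD3-2 at 1.7 to 19. Nothing is read from the direction of such calls. The summed intensity of the 30 genes lay between 1900 and 1990 in P-deficient soil and between 5397 and 6172 in P-fertilised soil. Of 10 root markers 7 fell and none rose, beside the same 24.8% and 22.3% of all probe sets. They summed to between 2556 and 3459 in P-deficient soil and between 11193 and 11748 in P-fertilised soil. These sums rest mostly on Lsi1, Lsi2, NAS1, NAS2 and PHO1-2. The dimmer SHR1, SCR1 and WOX11 overlapped between soils. Lsi1, the gene of a silicon transporter of rice roots, lay between 2015 and 2772 in P-deficient soil and between 3248 and 3870 in P-fertilised soil, so it was bright on all arrays. CASP1, of the endodermal barrier, was near the floor in P-deficient soil, between 10.7 and 18.4, and between 429 and 612 in P-fertilised soil. The division and root markers that passed all fell, as did most Aux/IAA genes that passed, whereas most ARF genes that passed rose. The part of these markers in the calls was not tested. The 8 green-tissue genes did not divide by soil: they summed to between 220 and 428 in P-deficient soil, and with P fertiliser to 319 and 1029 in T and to 179 and 207 in NT, where T replicate 2 stood apart.

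Other genes of the auxin pathway were read from a list by role. Of 27 measured, 7 rose and 11 fell in P-deficient soil, where 22.3% of all probe sets rose and 24.8% fell, and their median change was -0.32. No receptor gene of the TIR1/AFB names was among them. FIB, a tryptophan aminotransferase gene of auxin synthesis, had 50.1 and 28.8 (T) and 35.1 and 41.2 (NT) under P deficiency, against 530.5 and 580.3 (T) and 477.3 and 513.7 (NT) with P fertiliser, and fell by 2.98 on the log2 scale (limma adjusted p = 9.83e-07). YUCCA1, of the next step of synthesis, was dim and did not pass (-0.09). Of 5 genes of PIN auxin exporters 4 fell, with changes of -2.66 for PIN5, -2.16 for PIN5a, -1.87 for PIN2 and -1.55 for PIN3a, while PIN4 did not pass (-0.15). FIB and the 4 PIN genes thus lay on the same side as most Aux/IAA genes.

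Of 16 genes that take auxin out of use or bring it back, 7 rose and 3 fell, beside the same 22.3% and 24.8% of all probe sets. GH3-8, which joins auxin to amino acids, had 1608 and 2407.3 (T) and 2432.5 and 3254.5 (NT) under P deficiency, against 369.1 and 318.3 (T) and 334.2 and 374.3 (NT) with P fertiliser, a rise of 2.65 (limma adjusted p = 4.4e-06). DAO, which oxidises auxin, rose by 1.53. The hydrolase genes that free auxin from its conjugates split. IAR was lower on every P-deficient array, at 161.9 to 492.8 against 595.6 to 761.4 with P fertiliser. ILL3 had 86.6 and 22.3 (T) and 34.9 and 1.3 (NT) under P deficiency, against 1274.8 and 1339 (T) and 1452.5 and 1463.3 (NT) with P fertiliser, a change of -4.52 (limma adjusted p = 5.31e-06), whereas ILL8, ILL7, ILL2 and ILL5 rose by 0.44 to 1.21. Both genes of TOPLESS-type co-repressors, the partners through which Aux/IAA proteins silence genes, fell, with changes of -0.83 for TPR2 and -0.86 for TPR3. SAUR39, an early auxin response gene, had a change of -0.62 and passed (limma adjusted p = 0.00405). WOX11, of crown root growth, did not pass over both genotypes (-0.32, limma adjusted p = 0.0532).

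**Figure D3:**
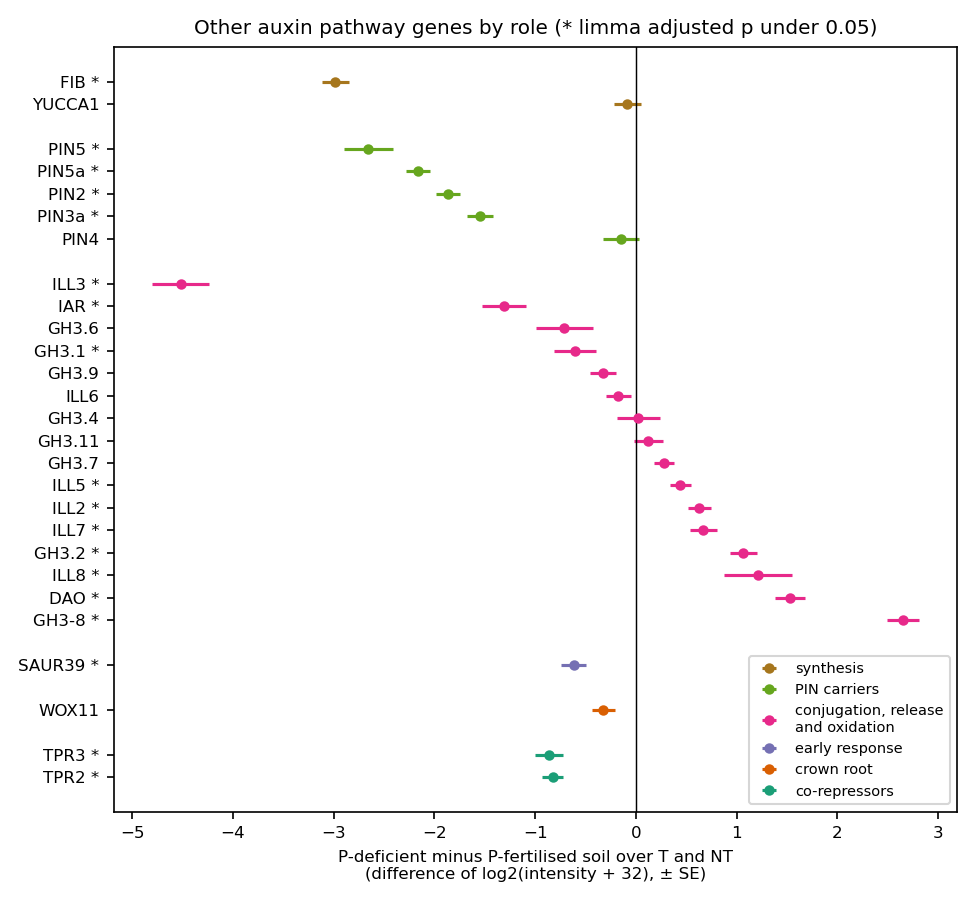
Difference between P-deficient and P-fertilised soil over both genotypes for 27 other auxin pathway genes, grouped by role, with an asterisk on those that passed. The horizontal axis is the difference of log2(intensity + 32) with its SE; FIB at -2.98, 4 PIN genes at -2.66 to -1.55 and ILL3 at -4.52 lie far left of 0, and GH3-8 lies farthest right at 2.65.

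The study's own question, what the transgene changes in roots, gave no call in the 40 genes. By limma, none passed for T minus NT in either soil or over both, and none passed in the interaction, where no probe set did (0%). Without T replicate 2 of the P-deficient plants, 140 probe sets passed in the interaction, and still no member. The background was low too: 0.108% of all probe sets passed in P-deficient soil, 0.00291% with P fertiliser and 0.0321% over both. At an unadjusted p under 0.05 there were 2 genes in P-deficient soil, 1 in P-fertilised soil, 2 over both and 1 in the interaction, where the shares of all probe sets were 13.3%, 2.61%, 9.63% and 5.92%. The differences ran from -0.59 to 0.40 in P-deficient soil and from -0.24 to 0.33 in P-fertilised soil, with medians of 0.03 and 0.08 beside -0.02 and 0.01 for all probe sets. In P-deficient soil both ratios of RNA integrity were higher on both T arrays than on the NT arrays, and their part in the differences there was not tested. No member passed in the fit with the GAPDH ratio, but none did without it either, so that fit cannot show their part. With 2 arrays per group, a p that misses the threshold does not show that T and NT were alike.

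The genes nearest to a call are given with their values, and none passed. In P-deficient soil ARF18 was 87.7 and 138.2 in T, against 159 and 192.7 in NT (-0.54 ± 0.21, limma adjusted p = 0.337). In P-fertilised soil the order of its arrays was the other way, with 138.7 and 171.9 in T and 119.5 and 128.1 in NT, and the interaction was -0.80 ± 0.29 (limma adjusted p = 0.829). IAA9 showed the reverse pattern. It was 159.3 and 135.8 in T, against 126.6 and 113.8 in NT, in P-deficient soil, and 51.2 and 52.2 in T, against 66 and 67.1 in NT, in P-fertilised soil, with an interaction of 0.47 ± 0.21 (limma adjusted p = 0.829). These were the only members whose T and NT arrays lay apart on opposite sides in the soils, which 5.3% of all probe sets did.

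ARF23, ARF2, IAA4 and IAA7 lay higher in T in both soils with no overlap of arrays, and IAA19 lay lower in both. Of all probe sets 4.93% were higher in this way and 4.77% lower, against 10% and 2.5% of the 40 members. In P-deficient soil IAA4 and IAA7 were near the floor, so the order of their arrays there says little. IAA4 read 10.1 and 12.6 in T, against 5.9 and 0.6 in NT, and IAA7 16.1 and 4.4, against 3.1 and 2.9. ARF23 has another probe set that lay the other way in P-deficient soil, also with no overlap, at 86 and 192.9 in T, against 238.1 and 209.3 in NT (-0.65, limma adjusted p = 0.368). Over both soils ARF23 differed by 0.28 ± 0.10 (limma adjusted p = 0.479), ARF2 by 0.28 ± 0.12 (0.523) and IAA4 by 0.23 ± 0.09 (0.482). IAA19 differed by -0.59 ± 0.31 in P-deficient soil (limma adjusted p = 0.454), where T read 170.9 and 401.4, against 421.9 and 408 in NT. That value rests on T replicate 1: without T replicate 2 it was -1.14 with an adjusted p of 0.043, the one call on T minus NT among the members under any setting, and with the GAPDH ratio in the fit it was 0.22. IAA24 in P-deficient soil, at 87.6 and 49.2 in T against 50.4 and 36 in NT (0.40 ± 0.21, limma adjusted p = 0.462), overlapped. ARF10 in P-deficient soil read 243.8 and 207.7 in T, against 243.7 and 387.4 in NT (-0.40 ± 0.21, limma adjusted p = 0.456), and its arrays overlapped. ARF15 in P-fertilised soil read 129.3 and 158.6 in T, against 102.9 and 114.4 in NT (0.32 ± 0.17, limma adjusted p = 1). The remaining genes with the smallest p in some comparison were IAA13 (interaction 0.39 ± 0.25), IAA12 (interaction 0.26 ± 0.26), IAA25 (interaction -0.33 ± 0.24), IAA3 (-0.20 ± 0.17 over both soils) and ARF13 (-0.12 ± 0.14 in P-fertilised soil), with limma adjusted p of 0.736 or above. Counted by arrays that did not overlap, 6 genes were higher and 3 lower in T in P-deficient soil, where 17.6% and 22.9% of all probe sets were. In P-fertilised soil 14 were higher and 6 lower, where 20.3% and 16.2% were. The 27 other auxin pathway genes gave no call on T minus NT either. PIN4 came nearest over both soils, with 6.3 and 14.8 in T, against 30.8 and 68.2 in NT, in P-deficient soil and 4.8 and 20 in T, against 54.8 and 70 in NT, in P-fertilised soil (-1.01 ± 0.18, limma adjusted p = 0.159).

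**Figure D4:**
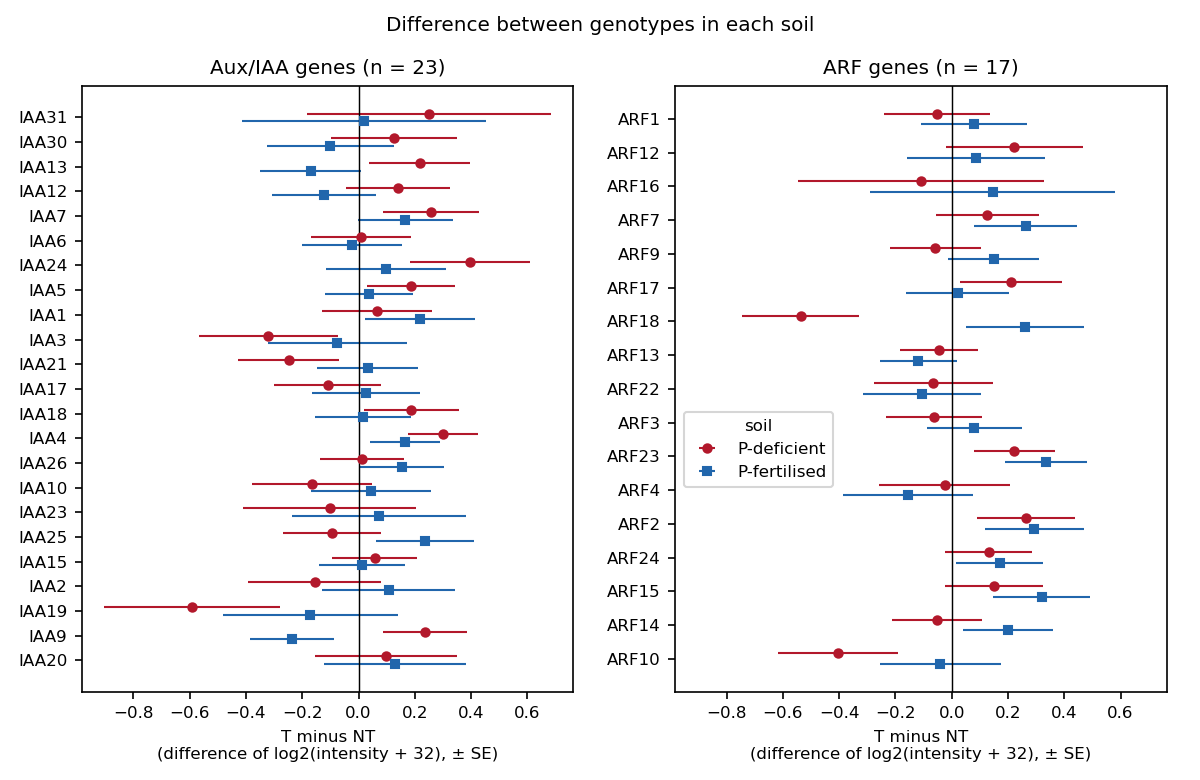
Difference between T and NT within each soil for 23 Aux/IAA genes (left) and 17 ARF genes (right). The horizontal axis is the difference of log2(intensity + 32) and bars are SE; all points lie between -0.59 (IAA19, P-deficient soil) and 0.40 (IAA24, P-deficient soil), and none passed the test.

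Further probe sets of the same genes bear on some of the soil calls. The second probe sets of ARF2 (0.69) and ARF4 (0.95) rose too, and that of ARF23 had a change of 0.49 that missed the threshold (limma adjusted p = 0.0721). For IAA1 and IAA3 the second probe set did not follow the first: IAA1 had 0.02 (limma adjusted p = 0.864) at signals of 12 to 27.9, and IAA3 had 0.23 (limma adjusted p = 0.097) at 19.6 to 43.3, both far dimmer than the sets used. IAA23 had a second set that fell by 0.64 on the log2 scale (limma adjusted p = 0.0391) and another, dim one at 0.18 that did not pass (limma adjusted p = 0.209). The suffixes of the set used for IAA23 and of the second ARF23 set mark probes that may also bind other transcripts. The further sets of IAA4, IAA8 and IAA31 were below the filter. Averaged over a gene's probe sets, IAA31 changed by -2.05, IAA1 by -0.54 and IAA3 by -0.39, against -4.12, -1.11 and -1.01 for the set used alone. All 3 kept their direction and call, while IAA4 fell below the filter, which left 27 of 39 members passing.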

How the data were processed

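The authors deposited 1 intensity value per probe set and array on a linear scale for 57381 probe sets, made with GCOS per the submitters' processing notes, which name no version or settings. In the values the mean after trimming 2% at each end was 100.01 to 100.02 on every array. The number of arrays limits the precision. No detection calls or probe-level data were used.

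The scale of analysis was log2(intensity + 32). Leaving out 187 control probe sets and the 40% with the lowest mean log2 value (limit 5.39) kept 34316. A model of 4 group means was fitted by limma 3.58.1 (R 4.3.3; lmFit, eBayes with a trend), which had 4 residual degrees of freedom and, at the median, 4.28 prior ones. Benjamini-Hochberg adjustment ran over all probe sets tested, with a threshold of 0.05. The 2 replicates are called biological in the labels, which do not say whether they are plants or pools, so p-values measure the spread between these samples.

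Platform annotation paired 22436 probe sets with 1 gene, 95 with several, and did not list 34663. All 17905 genes so named matched the RefSeq table of assembly ASM3414082v1, used for names and neighbouring genes. The build of the array design is not stated, so no coordinates are printed. Genes with several matching synonyms (8 loci, such as ARF1, also listed as ARF16) carry the name better known in rice. Sequences were not analysed here. In the pathway list LAX1, LAX2, CRL4 and ASP1 were left out, where the name belongs to another gene.

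Members and lists were chosen with earlier results of these data known. Named genes are, for soil, up to 12 members each way past the threshold with the largest change; for T minus NT and the interaction, members past the threshold or up to 3 each way with the smallest p; the 5 members with the highest and the 5 with the lowest mean signal; and those left out by the filter. Other members are given so that all are accounted for. Alternatives were a pseudocount of 1 or 100, quantile normalization, no filter or one at 60%, the replicate number as a block, the GAPDH ratio as a covariate, the mean over a gene's probe sets, each array left out in turn and, chosen after seeing the data, the 4 arrays of each soil alone and a crossed block.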

Additional observations from a re-analysis of the deposited data

How the results depend on the processing

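Of the 40 members, 28 passed between soils, as under a pseudocount of 1 or 100 and the GAPDH covariate; 27 did after quantile normalization. Of all 34316 probe sets 16170 passed in the main fit and 14647 to 16613 under these settings. Where the number tested changed, 29 of 43 members passed with no filter, 26 of 37 with a filter at 60% and 27 of 39 with the mean over probe sets. Over all probe sets 16562 of 57194, 13285 of 22878 and 16167 of 34310 passed, so the background share rose as dim probe sets were left out. Leaving out 1 array gave 26 to 30 over both genotypes (the 30 of 42 tested), 19 to 28 in T and 19 to 26 in NT, 2 to 3 Aux/IAA genes higher and 15 to 17 lower, 8 ARF genes higher each time and 1 to 3 lower, and 16 to 20 pathway genes, where all arrays gave 18. The low of 1 ARF gene came when T replicate 2 of either soil, or an NT array with P fertiliser, was left out, when ARF7 and ARF12 lost their calls. IAA19 passed with the GAPDH covariate (0.75) and with the P-deficient T replicate 1 left out, and ARF16 and IAA10 without 1 NT array. IAA8 and IAA14 passed with no filter. IAA8 also came past the filter with some P-deficient arrays left out. It changed by -0.38 without T replicate 2 and by -0.45 and -0.39 without NT replicates 1 and 2. In those fits it counts among the lower Aux/IAA genes, and nothing is read from its direction. All 374 values of the genes with the largest changes between soils kept direction and call. These genes were chosen for large changes on the same arrays, so this count is no further support for the calls. ARF7 and ARF12 were not among them. For T minus NT, no member passed in P-fertilised soil, over both soils or in the interaction under any setting, and 0 to 1 passed in P-deficient soil, the 1 being IAA19 without T replicate 2. Directions turned, all below the threshold, for IAA24 (-0.0093) and IAA19 (0.22) in P-deficient soil and IAA19 over both soils (0.026) with the GAPDH covariate, and for ARF23 over both soils (-0.0022) with the mean over probe sets; the cause was not tested. Replicate numbers did not pair the arrays (correlations of replicate deviations -0.261 to 0.21), and the replicate block gave 27 members between soils, 25 in T, 23 in NT and 0 for T minus NT. With the numbers of NT in P-deficient soil crossed (r = -0.261), 28 members passed between soils and 0 for T minus NT. Over all probe sets the 37 calls on T minus NT in P-deficient soil became 19 with the block, 81 crossed, 13 without the filter, 0 with the GAPDH covariate, 10 on the P-deficient arrays alone and 8 to 506 with an array left out; those over both soils were 11 and became 0 to 236, those in P-fertilised soil were 1 and became 0 to 7, and the interaction had 0 and 0 to 140, with an array left out; 506, 236 and 140 came without T replicate 2 of the P-deficient plants. Between soils, 12235 calls in T became 7821 when T replicate 2 with P fertiliser was left out, and 11166 in NT became 7223 when NT replicate 1 with P fertiliser was left out and 6795 when its partner was. Signals near the floor limit IAA8, IAA14, IAA16, ARF13 and IAA4, and IAA7 in P-deficient soil.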
